A study of Mus musculus with 96 samples.

Results

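Mitosis genes of mouse epidermis were followed over the day in 4 genotypes that differ in where the circadian clock can run. The 54 genes, of 22384 measured in all 4 genotypes, were chosen by name for their roles in the spindle, the kinetochore and chromosome segregation. Earlier results of these data were known when the genes were chosen. All 54 reached a mean of at least 1 RPKM (reads scaled by transcript length and library size) over the 96 libraries, the level asked of a gene before it was tested, as did 12144 genes in all.

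Back-skin epidermis was separated with dispase from male C57BL/6 mice aged 8 weeks under 12 h light and 12 h dark, and poly(A) RNA was sequenced from 4 mice per genotype at ZT0 (lights on), ZT4, ZT8, ZT12 (lights off), ZT16 and ZT20, which gives 24 mice and 24 libraries for each genotype. Arntl encodes BMAL1, an activator that the clock needs, and in 3 genotypes both Arntl alleles carry a removable stop cassette (stopFL/stopFL). RERE mice carry K14Cre tg/wt and Syt10-Cre tg/wt, so that Arntl can be restored in epidermis and brain. EpiRE mice carry K14Cre tg/wt with Syt10-Cre wt/wt, for restoration in epidermis alone, and BRE mice carry K14Cre wt/wt with Syt10-Cre tg/wt, for restoration in brain alone. WT mice are Arntl wt/wt and also carry both Cre transgenes, K14Cre wt/tg and Syt10-Cre tg/wt. K14Cre is driven by a promoter of basal keratinocytes and of other stratified epithelia, and Syt10-Cre acts in the central clock of the brain but not only there, so that restoration is set by where each promoter has been active. The labels do not say whether the mice of 1 genotype share litters. The p-values set a fitted rhythm against the variation of these mice around the fit.

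In dividing cells, cyclin-dependent kinase 1 with its cyclins starts mitosis, condensins and topoisomerase II compact and untangle the chromosomes, and kinetochores attach each chromatid to spindle microtubules. The spindle checkpoint holds back the anaphase-promoting complex until every chromosome is attached, after which the chromatids part and cytokinesis splits the cell. Most of these genes are transcribed late in the cell cycle, when the MuvB complex with B-MYB and FOXM1 acts on promoters that carry a cell-cycle homology region (CHR), often beside CCAAT boxes that bind NF-Y, and in epidermis the dividing cells are mainly basal keratinocytes.

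The promoters of 6 members, from 6 of the roles described here, are shown, and each carries both of these elements. Each is the first listed member of its role with a CHR in the stretch printed. A CCAAT box was not asked for. The RefSeq promoter table of build GRCm38.p6 (mm10) held 43 of the 54 members, each as 250 bases before to 50 bases after the annotated start. The stretches printed run from 150 bases before to 30 bases after the start, read 5′ to 3′ on the strand of the gene, and capitals mark TTTGAA or TTCAAA (the CHR on either strand) and CCAAT or ATTGG (the CCAAT box on either strand). In the last capitals of Cdca8 a CHR and a CCAAT box overlap.
Cdk1, chr10:69352883-69353062, minus strand: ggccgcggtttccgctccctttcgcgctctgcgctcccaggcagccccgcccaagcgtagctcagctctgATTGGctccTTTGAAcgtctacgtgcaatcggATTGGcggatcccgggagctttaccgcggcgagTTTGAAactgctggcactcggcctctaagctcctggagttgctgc
Cdca8, chr4:124936888-124937067, minus strand: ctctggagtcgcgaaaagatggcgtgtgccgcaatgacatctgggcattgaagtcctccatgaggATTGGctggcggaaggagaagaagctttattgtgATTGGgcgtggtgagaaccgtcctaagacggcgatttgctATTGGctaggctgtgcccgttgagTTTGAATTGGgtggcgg
Cenpa, chr5:30666736-30666915, plus strand: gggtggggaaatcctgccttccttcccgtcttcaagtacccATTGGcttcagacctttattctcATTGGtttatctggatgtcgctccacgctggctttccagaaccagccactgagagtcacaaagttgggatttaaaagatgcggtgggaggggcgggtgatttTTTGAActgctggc
Ttk, chr9:83834539-83834718, plus strand: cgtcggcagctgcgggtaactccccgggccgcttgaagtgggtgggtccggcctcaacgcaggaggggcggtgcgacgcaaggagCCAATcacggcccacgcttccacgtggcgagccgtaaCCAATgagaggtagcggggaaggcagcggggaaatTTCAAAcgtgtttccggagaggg
Kif11, chr19:37376232-37376411, plus strand: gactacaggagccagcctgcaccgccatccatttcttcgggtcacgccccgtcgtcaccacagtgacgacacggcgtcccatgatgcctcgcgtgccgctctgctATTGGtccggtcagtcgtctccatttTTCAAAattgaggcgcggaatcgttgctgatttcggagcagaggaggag
Kif23, chr9:61946770-61946949, minus strand: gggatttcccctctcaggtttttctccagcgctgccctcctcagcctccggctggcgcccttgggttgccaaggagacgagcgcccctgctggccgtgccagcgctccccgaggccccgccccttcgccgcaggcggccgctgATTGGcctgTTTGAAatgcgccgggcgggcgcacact
The CHR letters were found in 34 of the 43 member promoters (79.1%), against 18.1% of all 27025 promoters in the table and 12.0% of the 9017 promoters of tested genes. CCAAT boxes were found in 32 of the 43 (74.4%), against 37.9% of all promoters and 39.0% of those of tested genes, and 29 member promoters held both. Mad2l1, Nusap1, Nuf2, Birc5, Ncaph and Melk held neither in this window. CACGTG, the E-box form bound by BMAL1 with CLOCK, was found in 2 of the 43 (4.65%), those of Ttk and Anln, against 7.24% of all promoters and 10.7% of those of tested genes. These counts are of letters in a window and not of bound sites.

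Depth, estimated from the value that 1 read adds, was 11.6 to 33.3 megareads per library, with a median of 17.0 megareads. The tissue label was checked with marker genes: 7 of 7 basal keratinocyte markers were above a mean of 1 RPKM in each genotype, with summed levels of 10825 to 17882 RPKM in RERE, 12625 to 18003 RPKM in EpiRE, 10625 to 16682 RPKM in BRE and 11364 to 18889 RPKM in WT, and all 5 endothelial and all 4 adipocyte markers were below 1 RPKM in every genotype. Arntl itself, summed over the whole gene, had medians of 16.6 RPKM (4.77 to 26.5) in RERE, 15.1 RPKM (9.56 to 23.96) in EpiRE, 12.9 RPKM (11.4 to 14.6) in BRE and 14.7 RPKM (4.69 to 27.4) in WT. Its transcript was thus not absent in BRE, where no Cre of the epidermis removes the stop, and its level there does not check the label. Hair follicle and sebaceous gland markers, 7 of 7 above 1 RPKM, summed to 396 to 1024 RPKM in RERE, 476 to 1426 RPKM in EpiRE, 493 to 1520 RPKM in BRE and 411 to 1535 RPKM in WT. Blood markers, 2 of 5 above 1 RPKM, reached 173 RPKM in RERE, 156 RPKM in EpiRE, 165 RPKM in BRE and 195 RPKM in WT, and skeletal muscle markers, 2 of 5 above 1 RPKM, lay between 31.8 and 53.9 RPKM in all 4 genotypes. Fibroblast markers summed to 1.17 to 8.59 RPKM in RERE, 1.2 to 13.0 RPKM in EpiRE, 2.09 to 14.3 RPKM in BRE and 1.51 to 21.2 RPKM in WT. In bulk tissue, fewer cells in mitosis and less RNA per cell cannot be told apart. Each genotype has its own table, normalized apart from the others, so levels of different genotypes are set side by side here and were not tested.

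Averaged over the 54 genes, the mean log2 RPKM of a mouse had a daily swing in RERE, BRE and WT and little in EpiRE. In RERE the 4 mice stood at 2.58, 3.53, 3.15 and 3.26 log2 RPKM at ZT0 and at 1.72, 1.63, 1.85 and 1.62 at ZT8. In EpiRE the 4 mice stood at 1.86, 3.13, 2.76 and 2.33 at ZT0 and at 2.42, 2.56, 2.91 and 2.61 at ZT8. The RERE mice at these times did not overlap, whereas the 4 EpiRE mice at ZT0 spread across the values at ZT8. In BRE the 4 mice stood at 3.37, 3.04, 2.74 and 2.97 at ZT4 and at 1.99, 2.47, 2.07 and 2.61 at ZT20. In WT the 4 mice stood at 3.33, 3.27, 3.3 and 2.999 at ZT0 and at 1.78, 1.76, 1.67 and 1.997 at ZT8. Among times sampled every 4 h, BRE was thus high at ZT4, and RERE and WT were high at ZT0. A 24 h harmonic put the swing of this mean at 1.19 log2 in RERE with its peak at ZT22.7, at 0.12 in EpiRE, at 0.56 in BRE with its peak at ZT4.81, and at 1.34 in WT with its peak at ZT22.4.

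**Figure D1:**
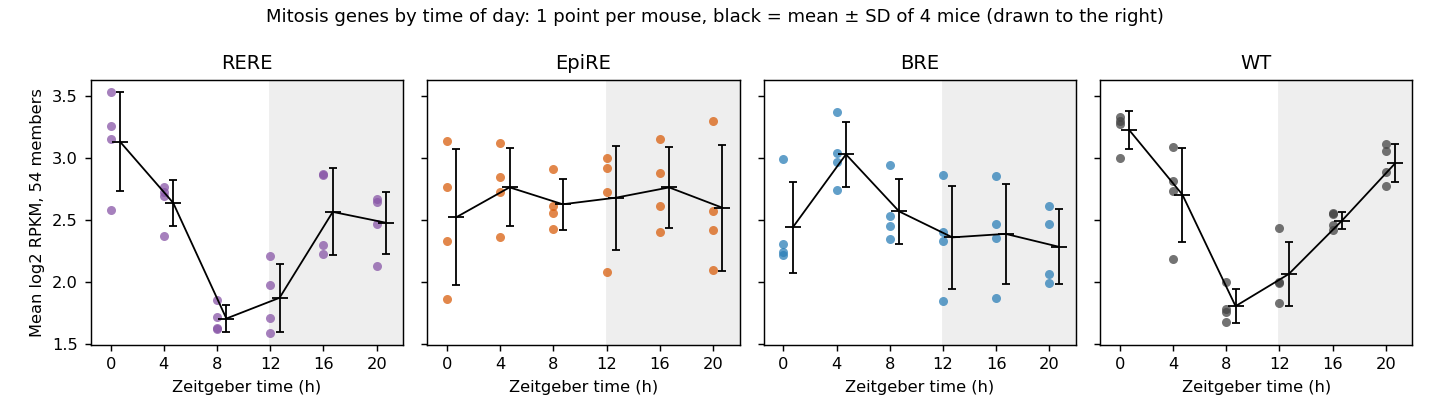
Mean log2 RPKM of the 54 mitosis genes (vertical axis) against zeitgeber time in hours (horizontal axis) in RERE, EpiRE, BRE and WT. Each coloured point is 1 mouse, the black line joins the means of 4 mice with their SD, and the dark phase is shaded; the lowest means lie at ZT8 in RERE and WT, the highest at ZT4 in BRE, and the EpiRE means differ by 0.24 log2 in all.

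Each gene was then tested for a 24 h rhythm in each genotype with limma, as an F test of the cosine and sine terms, with p-values adjusted over all 12144 genes by Benjamini-Hochberg and a call below 0.05. Sizes, or swings, are fitted differences between peak and trough in log2. In RERE 50 of the 54 members were called, where 16.4% of all tested genes were. In EpiRE 0 of the 54 were called, where 2.87% of all tested genes were, and 1 member had an unadjusted p below 0.05. In BRE 7 were called, where 17.1% of all tested genes were, and 29 had an unadjusted p below 0.05. In WT 53 were called, where 34.4% of all tested genes were. Leaving out the mice numbered 1, 2, 3 or 4 at every time gave 6, 0, 0 and 1 members called in BRE, with median member swings of 0.63, 0.52, 0.60 and 0.71 log2. Calls over all tested genes in BRE were 1820, 211, 425 and 860 in these fits with fewer mice, against 2072 with all mice.

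The members' median rhythm was 1.34 log2 in RERE, 0.24 in EpiRE, 0.60 in BRE and 1.47 in WT, against 0.18 log2 in RERE, 0.15 in EpiRE, 0.20 in BRE and 0.23 in WT over all tested genes. Aspm, which focuses spindle poles, had the largest rhythm in RERE (2.23 ± 0.30 log2) and in WT (2.18 ± 0.20). It was followed in RERE by Nusap1 (1.95) and by Cenpa (1.91), with Ccnb2 at 1.91, and in WT by Nusap1 (2.05) and Plk1 (2.001). In BRE the largest rhythms were those of Melk (1.12 ± 0.24), Pbk (1.07 ± 0.26) and Ncapg (0.92 ± 0.24), all 3 called. In EpiRE the largest fitted values, of Ndc80 (0.57 ± 0.29), Ncaph (0.55 ± 0.25) and Pbk (0.46 ± 0.28), were not called. Spc24, Dlgap5 and Smc4 were the 3 smallest in RERE at 0.14, 0.26 and 0.49 log2, and in WT Spc24, Dlgap5 and Ckap2l were smallest at 0.16, 0.39 and 0.54. The 3 smallest in EpiRE were Aurka (0.04), Prc1 (0.08) and Ckap2l (0.08), and in BRE they were Dlgap5 (0.09), Spc24 (0.16) and Hmmr (0.24).

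**Figure D2:**
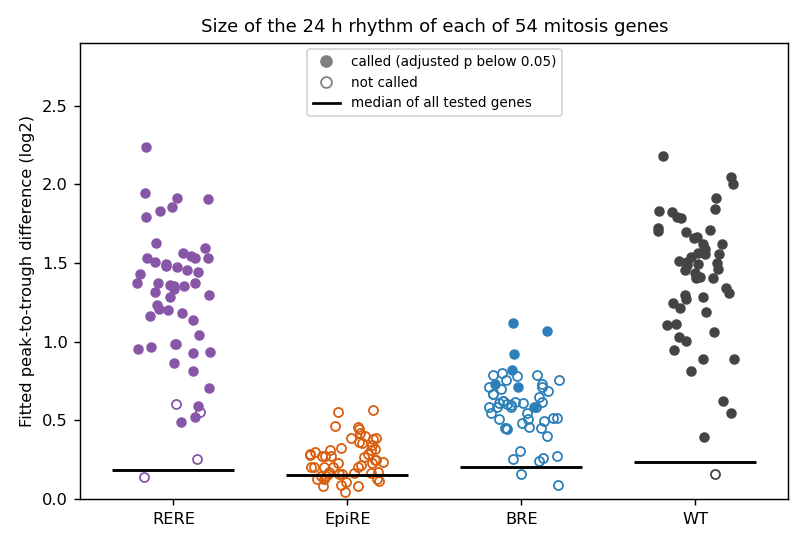
Fitted peak-to-trough difference in log2 (vertical axis) of each of the 54 members in RERE, EpiRE, BRE and WT. Filled circles passed limma at an adjusted p below 0.05, open circles did not, and black lines mark the median of all tested genes; most RERE and WT members lie above 0.5 log2, while 52 of the 54 EpiRE members lie below it.

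The authors deposited q-values from 2 rhythm searches of their own, which differed for RERE. In the authors' deposited tables, JTK_CYCLE had q below 0.05 for 41 members in RERE, 0 in EpiRE, 2 in BRE and 53 in WT, where 8.52% of all tested genes did in RERE, 0.156% in EpiRE, 5.67% in BRE and 20.8% in WT. BIOCYCLE, in the authors' deposited tables, had q below 0.05 for 0 members in RERE, in EpiRE and in BRE, and for 48 in WT, where 1.56% of all tested genes did in RERE, 0% in EpiRE, 0% in BRE and 10.0% in WT. The smallest BIOCYCLE q of a member in RERE was 0.0643 and the median 0.211, in the authors' deposited table.

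Per-mouse values show the swing without a fit. The mice at the time with the highest mean and those at the time with the lowest did not overlap for 53 of 54 members in RERE, 3 in EpiRE, 38 in BRE and 54 in WT, where this held for 37.7% of all tested genes in RERE, 32.1% in EpiRE, 43.6% in BRE and 52.7% in WT. Because these times were picked by their means, the counts are a description. ZT0 was the highest time for 53 members in RERE and 48 in WT, ZT4 for 52 in BRE, and in EpiRE 24 members were highest at ZT16, 18 at ZT4 and 10 at ZT12. The ratio of the highest to the lowest mean had a median of 3.09-fold in RERE, 1.27-fold in EpiRE, 1.76-fold in BRE and 2.84-fold in WT.

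**Figure D3:**
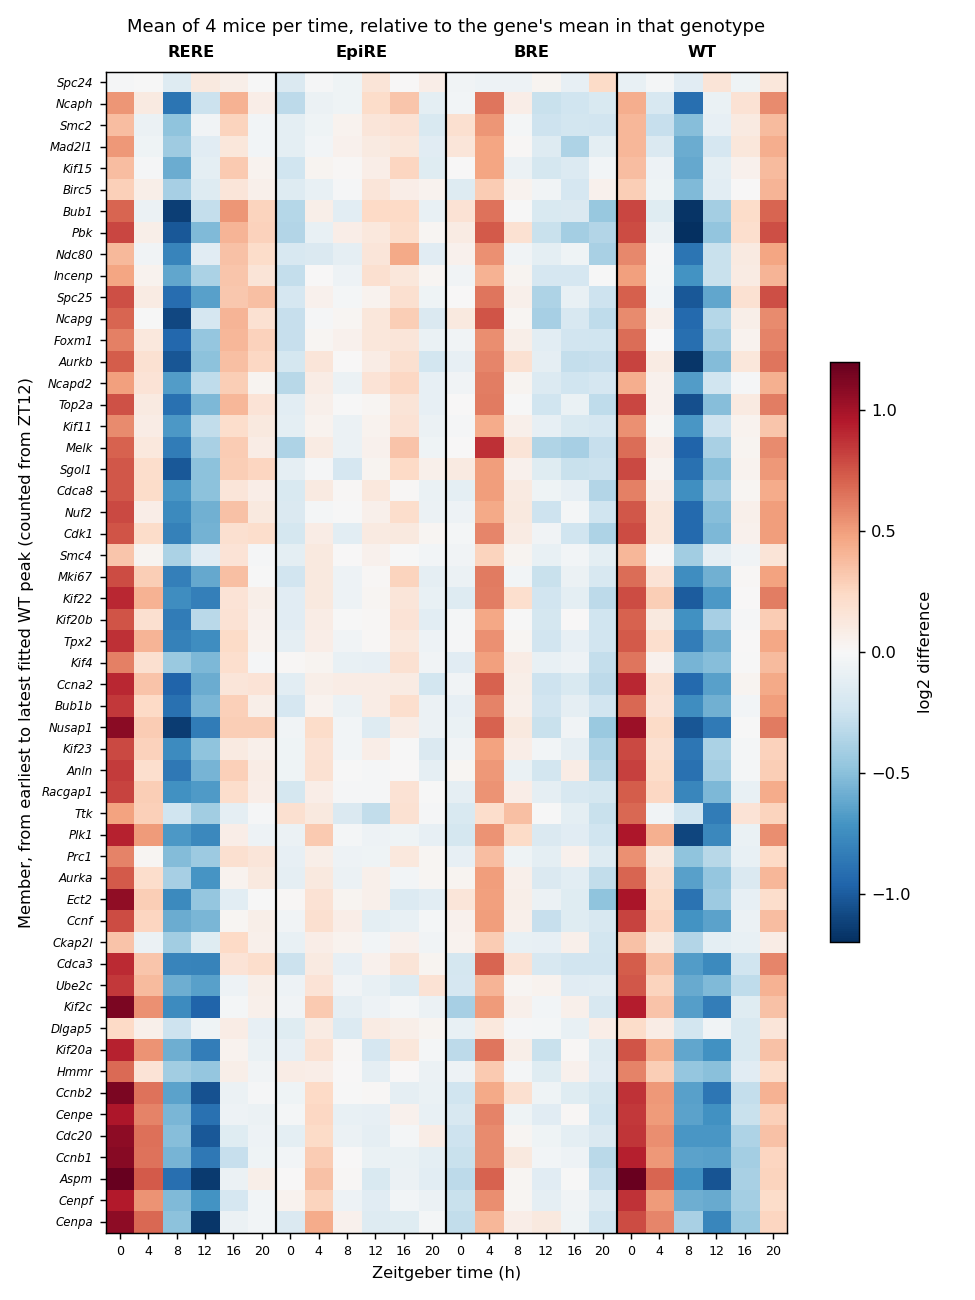
Mean log2 RPKM of 4 mice at each time, relative to the mean of that gene in that genotype, for the 54 members (vertical axis, ordered by fitted peak in WT) at 6 zeitgeber times in hours (horizontal axis) in RERE, EpiRE, BRE and WT. Red is above and blue below the mean of the gene, and colours end at the limits of the scale; RERE and WT share red at ZT0 and blue at ZT8 and ZT12, BRE is red at ZT4, and Spc24 at the top, whose WT rhythm was not called, shows no such pattern.

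All 10 cyclins and kinases that start and steer mitosis were called in RERE and in WT, 0 in EpiRE, and 2 in BRE (Melk and Pbk, both mitotic kinases). Counts by role, here and below, stand beside 16.4% of all tested genes called in RERE, 2.87% in EpiRE, 17.1% in BRE and 34.4% in WT. With so few genes per role, the EpiRE and BRE counts of single roles cannot be told from these shares. Cdk1 (ENSMUSG00000019942, mm10 chromosome 10, 69335146 to 69352938, minus strand) encodes the kinase that starts mitosis. In RERE mice, Cdk1 measured 5.67, 14.3, 8.76 and 9.73 RPKM at ZT0, against 2.87, 3.296, 3.29 and 2.903 RPKM at ZT8. In EpiRE mice, Cdk1 measured 8.53, 7.55, 11.7 and 3.798 RPKM at ZT12, against 5.495, 5.54, 8.07 and 6.06 RPKM at ZT8. Cdk1 values of the mice at these times stayed apart in RERE and overlapped in EpiRE. Cdk1 in BRE mice measured 12.97, 9.24, 7.08 and 9.21 RPKM at ZT4 and 4.05, 6.28, 3.58 and 6.05 RPKM at ZT20. Cdk1 in WT mice measured 12.1, 11.9, 12.4 and 7.85 RPKM at ZT0 and 3.57, 3.42, 2.64 and 3.71 RPKM at ZT8. Cdk1 values of the mice at these times did not overlap in either BRE or WT. Cdk1 had fitted swings of 1.35 ± 0.24 log2 in RERE, 0.20 ± 0.27 in EpiRE, 0.76 ± 0.26 in BRE and 1.59 ± 0.18 in WT (SE, n = 24 mice each). limma gave Cdk1 adjusted p-values of 0.00198 in RERE, 0.902 in EpiRE, 0.101 in BRE and 5.79e-06 in WT.

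Cyclin B1, the partner of that kinase, is encoded by Ccnb1 (ENSMUSG00000041431, mm10 chromosome 13, 100778650 to 100786570, minus strand). Ccnb1 in RERE mice measured 9.23, 21.97, 15.8 and 17.6 RPKM at ZT0 and 6.502, 2.59, 3.48 and 4.35 RPKM at ZT12. Ccnb1 in EpiRE mice measured 11.5, 13.7, 8.01 and 13.7 RPKM at ZT4 and 7.78, 7.35, 14.2 and 7.38 RPKM at ZT16. Ccnb1 values of the mice at these times stayed apart in RERE and overlapped in EpiRE. In BRE mice, Ccnb1 measured 16.9, 12.7, 10.02 and 12.2 RPKM at ZT4, against 5.43, 7.89, 5.53 and 9.54 RPKM at ZT20. In WT mice, Ccnb1 measured 18.2, 17.995, 16.9 and 13.8 RPKM at ZT0, against 6.78, 4.52, 5.01 and 6.26 RPKM at ZT8. Ccnb1 values of the mice at these times did not overlap in either BRE or WT. Ccnb1 had fitted swings of 1.79 ± 0.26 log2 in RERE, 0.32 ± 0.31 in EpiRE, 0.62 ± 0.26 in BRE and 1.66 ± 0.20 in WT (SE, n = 24 mice each). limma gave Ccnb1 adjusted p-values of 0.000298 in RERE, 0.796 in EpiRE, 0.187 in BRE and 9.83e-06 in WT.

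Aurka (ENSMUSG00000027496, mm10 chromosome 2, 172356190 to 172370535, minus strand) encodes Aurora A, a kinase of centrosomes and spindle poles. In RERE mice, Aurka measured 4.99, 10.9, 6.37 and 7.58 RPKM at ZT0, against 3.07, 2.58, 2.14 and 2.87 RPKM at ZT12. In EpiRE mice, Aurka measured 5.07, 5.93, 4.26 and 7.08 RPKM at ZT4, against 4.11, 4.18, 5.36 and 5.86 RPKM at ZT8. Aurka values of the mice at these times stayed apart in RERE and overlapped in EpiRE. Aurka in BRE mice measured 8.08, 6.64, 5.99 and 5.58 RPKM at ZT4 and 2.75, 4.32, 3.303 and 4.91 RPKM at ZT20. Aurka in WT mice measured 8.33, 8.36, 7.29 and 6.096 RPKM at ZT0 and 3.03, 2.11, 3.14 and 3.62 RPKM at ZT8. Aurka values of the mice at these times did not overlap in either BRE or WT. Aurka had fitted swings of 1.2 ± 0.18 log2 in RERE, 0.04 ± 0.23 in EpiRE, 0.62 ± 0.21 in BRE and 1.31 ± 0.15 in WT (SE, n = 24 mice each). limma gave Aurka adjusted p-values of 0.000464 in RERE, 1 in EpiRE, 0.0905 in BRE and 5.89e-06 in WT. Of the other cyclins, Ccna2 (cyclin A2) had fitted swings of 1.53 log2 in RERE, 0.30 in EpiRE, 0.80 in BRE and 1.71 in WT. Ccnb2 (cyclin B2) had fitted swings of 1.91 log2 in RERE, 0.25 in EpiRE, 0.59 in BRE and 1.78 in WT, and Ccnf (cyclin F) of 1.21 log2 in RERE, 0.25 in EpiRE, 0.62 in BRE and 1.51 in WT. All 3 were called in RERE and WT and in neither EpiRE nor BRE. Plk1, a kinase needed at nearly every step of mitosis, had fitted swings of 1.49 log2 in RERE, 0.28 in EpiRE, 0.66 in BRE and 2.001 in WT. Pbk had fitted swings of 1.53 log2 in RERE, 0.46 in EpiRE, 1.07 in BRE and 1.92 in WT, and Melk of 1.16 log2 in RERE, 0.39 in EpiRE, 1.12 in BRE and 1.5 in WT. The BRE calls of Melk and Pbk had limma adjusted p-values of 0.0126 and 0.0201, with peaks at ZT4.11 and ZT4.33.

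Foxm1 (ENSMUSG00000001517, mm10 chromosome 6, 128362967 to 128376146, plus strand) encodes a transcription factor that acts on many of the other members. Foxm1 in RERE mice measured 5.18, 11.2, 8.98 and 8.64 RPKM at ZT0 and 2.55, 2.38, 3.95 and 2.61 RPKM at ZT8. Foxm1 in EpiRE mice measured 7.58, 8.24, 8.87 and 4.88 RPKM at ZT12 and 3.42, 8.42, 6.62 and 4.57 RPKM at ZT0. Foxm1 values of the mice at these times stayed apart in RERE and overlapped in EpiRE. In BRE mice, Foxm1 measured 10.9, 8.16, 6.62 and 6.72 RPKM at ZT4, against 3.43, 5.13, 4.16 and 5.86 RPKM at ZT20. In WT mice, Foxm1 measured 9.803, 9.39, 10.98 and 8.03 RPKM at ZT0, against 3.21, 2.63, 2.696 and 4.52 RPKM at ZT8. Foxm1 values of the mice at these times did not overlap in either BRE or WT. Foxm1 had fitted swings of 1.34 ± 0.23 log2 in RERE, 0.36 ± 0.22 in EpiRE, 0.67 ± 0.21 in BRE and 1.5 ± 0.18 in WT (SE, n = 24 mice each). limma gave Foxm1 adjusted p-values of 0.00163 in RERE, 0.56 in EpiRE, 0.0708 in BRE and 9.37e-06 in WT. Cdca3, which helps to degrade the mitosis inhibitor WEE1, had fitted swings of 1.59 log2 in RERE, 0.21 in EpiRE, 0.79 in BRE and 1.66 in WT.

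Among 7 genes of chromosome structure, 6 were called in RERE, 0 in EpiRE, 2 in BRE (Smc2 and Ncapg, subunits of condensin) and 7 in WT. The 2 in BRE stand beside 17.1% of all tested genes. Top2a (ENSMUSG00000020914, mm10 chromosome 11, 98992943 to 99024189, minus strand) encodes topoisomerase II alpha, which untangles sister chromatids. In RERE mice, Top2a measured 18.6, 36.5, 26.1 and 28.4 RPKM at ZT0, against 9.24, 6.75, 9.41 and 8.55 RPKM at ZT8. In EpiRE mice, Top2a measured 25.9, 15.9, 30.7 and 18.5 RPKM at ZT16, against 10.4, 27.5, 24.2 and 15.3 RPKM at ZT0. Top2a values of the mice at these times stayed apart in RERE and overlapped in EpiRE. Top2a in BRE mice measured 35.9, 24.9, 21.3 and 25.6 RPKM at ZT4 and 11.3, 15.7, 11.4 and 18.2 RPKM at ZT20. Top2a in WT mice measured 33.6, 31.4, 31.7 and 26.1 RPKM at ZT0 and 7.46, 8.11, 8.12 and 10.3 RPKM at ZT8. Top2a values of the mice at these times did not overlap in either BRE or WT. Top2a had fitted swings of 1.37 ± 0.23 log2 in RERE, 0.17 ± 0.25 in EpiRE, 0.65 ± 0.24 in BRE and 1.72 ± 0.18 in WT (SE, n = 24 mice each). limma gave Top2a adjusted p-values of 0.0013 in RERE, 0.925 in EpiRE, 0.136 in BRE and 1.70e-06 in WT.

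Ncapd2 (ENSMUSG00000038252, mm10 chromosome 6, 125168007 to 125191701, minus strand) encodes a subunit of condensin I. Ncapd2 in RERE mice measured 11.1, 19.9, 14.6 and 17.3 RPKM at ZT0 and 6.42, 6.02, 8.38 and 6.95 RPKM at ZT8. Ncapd2 in EpiRE mice measured 15.3, 11.95, 18.1 and 13.8 RPKM at ZT16 and 6.98, 14.3, 12.3 and 7.41 RPKM at ZT0. Ncapd2 values of the mice at these times stayed apart in RERE and overlapped in EpiRE. In BRE mice, Ncapd2 measured 20.8, 16.5, 13.3 and 16.6 RPKM at ZT4, against 12.99, 6.74, 9.597 and 8.65 RPKM at ZT16. In WT mice, Ncapd2 measured 18.6, 17.8, 16.1 and 14.4 RPKM at ZT0, against 7.53, 8.64, 6.53 and 8.403 RPKM at ZT8. Ncapd2 values of the mice at these times did not overlap in either BRE or WT. Ncapd2 had fitted swings of 0.86 ± 0.21 log2 in RERE, 0.40 ± 0.24 in EpiRE, 0.69 ± 0.21 in BRE and 1.03 ± 0.14 in WT (SE, n = 24 mice each). limma gave Ncapd2 adjusted p-values of 0.0185 in RERE, 0.535 in EpiRE, 0.0603 in BRE and 4.11e-05 in WT. Smc2, a core subunit of condensin, was the member of this group not called in RERE (limma adjusted p = 0.0981), with 0.55 log2 in RERE, 0.32 in EpiRE, 0.73 in BRE and 0.89 in WT. Its partner Smc4 had smaller rhythms, of 0.49 log2 in RERE, 0.12 in EpiRE, 0.27 in BRE and 0.62 in WT, at the second highest level of all members (a mean of 26.8 RPKM over the 4 genotypes). The condensin I subunits Ncaph and Ncapg had fitted swings of 1.28 and 1.4 log2 in WT and of 0.76 and 0.92 in BRE. Mki67, the proliferation marker Ki-67 that coats mitotic chromosomes, had fitted swings of 1.28 log2 in RERE, 0.23 in EpiRE, 0.59 in BRE and 1.44 in WT.

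Of 7 kinetochore and centromere genes, 6 were called in RERE, 6 in WT and 0 in EpiRE and in BRE, Spc24 being the exception in RERE and WT. Cenpa (ENSMUSG00000029177, mm10 chromosome 5, 30666777 to 30674830, plus strand) encodes the histone H3 variant that marks the centromere. In RERE mice, Cenpa measured 7.61, 14.8, 13.1 and 14.8 RPKM at ZT0, against 5.11, 2.01, 1.81 and 2.36 RPKM at ZT12. In EpiRE mice, Cenpa measured 10.1, 10.1, 6.997 and 12.8 RPKM at ZT4, against 6.06, 5.29, 9.81 and 5.64 RPKM at ZT16. Cenpa values of the mice at these times stayed apart in RERE and overlapped in EpiRE. Cenpa in BRE mice measured 11.9, 10.1, 7.09 and 7.75 RPKM at ZT4 and 4.72, 4.702, 5.02 and 8.81 RPKM at ZT0. Cenpa in WT mice measured 13.1, 12.9, 13.2 and 8.801 RPKM at ZT0 and 3.97, 2.27, 4.93 and 5.74 RPKM at ZT12. Cenpa values of the mice at these times stayed apart in WT and overlapped in BRE. Cenpa had fitted swings of 1.91 ± 0.28 log2 in RERE, 0.42 ± 0.31 in EpiRE, 0.50 ± 0.24 in BRE and 1.62 ± 0.18 in WT (SE, n = 24 mice each). limma gave Cenpa adjusted p-values of 0.000305 in RERE, 0.672 in EpiRE, 0.269 in BRE and 4.79e-06 in WT. Cenpe, a kinesin that moves chromosomes to the spindle equator, had fitted swings of 1.63 log2 in RERE, 0.16 in EpiRE, 0.45 in BRE and 1.62 in WT. Cenpf, a large kinetochore protein, had fitted swings of 1.53 log2 in RERE, 0.28 in EpiRE, 0.46 in BRE and 1.56 in WT. The NDC80 complex, which holds microtubules, is built from Ndc80, Nuf2, Spc24 and Spc25, and its subunits had unlike swings. Spc25 had fitted swings of 1.56 log2 in RERE, 0.23 in EpiRE, 0.71 in BRE and 1.83 in WT. Nuf2 had fitted swings of 1.3 log2 in RERE, 0.27 in EpiRE, 0.51 in BRE and 1.55 in WT, and Ndc80 of 0.98 log2 in RERE, 0.57 in EpiRE, 0.58 in BRE and 1.3 in WT. Spc24 (ENSMUSG00000074476, mm10 chromosome 9, 21755442 to 21760303, minus strand) stayed between 39.8 and 54.04 RPKM in RERE, 39.4 and 60.04 in EpiRE, 33.2 and 61.9 in BRE, and 39.9 and 59.02 in WT. It had the highest level of all members, a mean of 47.5 RPKM over the 4 genotypes against 1.89 RPKM for its partner Spc25, and the smallest rhythm in RERE and WT (limma adjusted p = 0.321 in RERE and 0.348 in WT). Spc24 mice at the highest and lowest times did not overlap in any genotype. These times were picked by their means, so this is a description, and it held for 32.1% (EpiRE) to 52.7% (WT) of all tested genes. The ratios of means were 1.21 in RERE (ZT12 over ZT8), 1.25 in EpiRE (ZT12 over ZT0), 1.25 in BRE (ZT20 over ZT16) and 1.23 in WT (ZT12 over ZT8). With the 6 times as separate levels Spc24 was called in WT alone, where the count of members was then 54.

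The chromosomal passenger complex corrects faulty attachments and later marks the division plane. Its 4 genes (Aurkb, counted among the kinases too, Incenp, Birc5 and Cdca8) were all called in RERE and WT and in neither EpiRE nor BRE. Aurkb, its kinase, had fitted swings of 1.44 log2 in RERE, 0.31 in EpiRE, 0.79 in BRE and 1.83 in WT. The scaffold Incenp had fitted swings of 0.96 log2 in RERE, 0.35 in EpiRE, 0.48 in BRE and 1.1 in WT, survivin (Birc5) of 0.52 log2 in RERE, 0.27 in EpiRE, 0.30 in BRE and 0.81 in WT, and borealin (Cdca8) of 1.18 log2 in RERE, 0.23 in EpiRE, 0.61 in BRE and 1.27 in WT. Birc5 thus had the smallest rhythm of the 4 in RERE, BRE and WT.

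Of 7 genes of the spindle checkpoint and anaphase, 6 were called in RERE, 0 in EpiRE, 3 in BRE (Bub1, Ttk and Mad2l1) and 7 in WT. Over all tested genes the shares called were 16.4% in RERE, 2.87% in EpiRE, 17.1% in BRE and 34.4% in WT. Bub1 (ENSMUSG00000027379, mm10 chromosome 2, 127801122 to 127831865, minus strand) encodes a checkpoint kinase of the kinetochore. Bub1 in RERE mice measured 1.65, 3.102, 2.33 and 2.25 RPKM at ZT0 and 0.629, 0.717, 0.762 and 0.493 RPKM at ZT8. Bub1 in EpiRE mice measured 2.38, 2.47, 2.49 and 1.12 RPKM at ZT12 and 0.837, 1.95, 1.78 and 1.15 RPKM at ZT0. Bub1 values of the mice at these times stayed apart in RERE and overlapped in EpiRE. In BRE mice, Bub1 measured 3.03, 2.04, 2.105 and 2.14 RPKM at ZT4, against 0.936, 1.19, 0.791 and 1.47 RPKM at ZT20. In WT mice, Bub1 measured 2.61, 3.02, 2.84 and 2.48 RPKM at ZT0, against 0.669, 0.571, 0.779 and 0.779 RPKM at ZT8. Bub1 values of the mice at these times did not overlap in either BRE or WT. Bub1 had fitted swings of 1.48 ± 0.28 log2 in RERE, 0.44 ± 0.27 in EpiRE, 0.82 ± 0.24 in BRE and 1.84 ± 0.20 in WT (SE, n = 24 mice each). limma gave Bub1 adjusted p-values of 0.00329 in RERE, 0.547 in EpiRE, 0.0475 in BRE and 4.35e-06 in WT.

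Cdc20 (ENSMUSG00000006398, mm10 chromosome 4, 118432901 to 118437352, minus strand) encodes the activator of the anaphase-promoting complex that the checkpoint holds back. In RERE mice, Cdc20 measured 9.34, 20.04, 15.02 and 16.3 RPKM at ZT0, against 5.06, 2.45, 2.87 and 3.87 RPKM at ZT12. In EpiRE mice, Cdc20 measured 10.4, 11.4, 6.84 and 12.6 RPKM at ZT4, against 6.96, 9.43, 11.2 and 5.45 RPKM at ZT12. Cdc20 values of the mice at these times stayed apart in RERE and overlapped in EpiRE. Cdc20 in BRE mice measured 15.2, 12.3, 9.81 and 10.8 RPKM at ZT4 and 5.56, 5.58, 5.78 and 11.2 RPKM at ZT0. Cdc20 in WT mice measured 15.1, 15.1, 17.2 and 12.01 RPKM at ZT0 and 4.67, 4.83, 4.67 and 5.97 RPKM at ZT8. Cdc20 values of the mice at these times stayed apart in WT and overlapped in BRE. Cdc20 had fitted swings of 1.83 ± 0.26 log2 in RERE, 0.15 ± 0.28 in EpiRE, 0.51 ± 0.26 in BRE and 1.7 ± 0.17 in WT (SE, n = 24 mice each). limma gave Cdc20 adjusted p-values of 0.000238 in RERE, 0.963 in EpiRE, 0.305 in BRE and 1.06e-06 in WT.

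Ube2c (ENSMUSG00000001403, mm10 chromosome 2, 164769898 to 164778822, plus strand) encodes the ubiquitin-conjugating enzyme of that complex. Ube2c in RERE mice measured 29.1, 51.5, 39.03 and 37.04 RPKM at ZT0 and 17.9, 11.5, 12.1 and 13.2 RPKM at ZT12. Ube2c in EpiRE mice measured 21.5, 27.3, 26.2 and 43.97 RPKM at ZT20 and 24.5, 14.999, 34.1 and 21.9 RPKM at ZT16. Ube2c values of the mice at these times stayed apart in RERE and overlapped in EpiRE. In BRE mice, Ube2c measured 38.4, 32.8, 24.2 and 30.2 RPKM at ZT4, against 19.5, 15.7, 18.9 and 29.6 RPKM at ZT0. In WT mice, Ube2c measured 41.4, 41.5, 42.2 and 30.2 RPKM at ZT0, against 14.5, 14.4, 15.01 and 16.7 RPKM at ZT8. Ube2c values of the mice at these times stayed apart in WT and overlapped in BRE. Ube2c had fitted swings of 1.38 ± 0.17 log2 in RERE, 0.20 ± 0.22 in EpiRE, 0.40 ± 0.20 in BRE and 1.4 ± 0.10 in WT (SE, n = 24 mice each). limma gave Ube2c adjusted p-values of 4.30e-05 in RERE, 0.839 in EpiRE, 0.299 in BRE and 6.76e-09 in WT. Ube2c had the smallest adjusted p of all members in RERE and in WT. Mad2l1, which binds and blocks Cdc20, had fitted swings of 0.61 log2 in RERE, 0.27 in EpiRE, 0.71 in BRE and 1.01 in WT. It was called in BRE (limma adjusted p = 0.0269) and WT (9.72e-05), and in RERE its adjusted p was 0.0906. Bub1b, the checkpoint protein BUBR1, had fitted swings of 1.37 log2 in RERE, 0.26 in EpiRE, 0.62 in BRE and 1.46 in WT. Sgol1 (shugoshin 1), which guards cohesion at centromeres, had fitted swings of 1.46 log2 in RERE, 0.31 in EpiRE, 0.70 in BRE and 1.56 in WT, at the lowest level of all members (1.61 RPKM over the 4 genotypes).

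Of 12 spindle genes, 6 of them kinesins, 11 were called in RERE, 0 in EpiRE and in BRE, and 12 in WT. Nusap1 (ENSMUSG00000027306, mm10 chromosome 2, 119618298 to 119651244, plus strand) encodes a protein that bundles spindle microtubules. In RERE mice, Nusap1 measured 6.82, 16.9, 12.2 and 13.5 RPKM at ZT0, against 2.71, 2.09, 3.28 and 2.17 RPKM at ZT8. In EpiRE mice, Nusap1 measured 8.96, 9.63, 5.55 and 12.1 RPKM at ZT4, against 6.99, 8.73, 8.702 and 3.85 RPKM at ZT12. Nusap1 values of the mice at these times stayed apart in RERE and overlapped in EpiRE. Nusap1 in BRE mice measured 14.1, 10.3, 8.28 and 9.37 RPKM at ZT4 and 3.84, 5.52, 3.63 and 5.96 RPKM at ZT20. Nusap1 in WT mice measured 14.3, 13.3, 12.9 and 10.3 RPKM at ZT0 and 2.88, 2.81, 2.87 and 3.69 RPKM at ZT8. Nusap1 values of the mice at these times did not overlap in either BRE or WT. Nusap1 had fitted swings of 1.95 ± 0.28 log2 in RERE, 0.15 ± 0.28 in EpiRE, 0.78 ± 0.26 in BRE and 2.05 ± 0.18 in WT (SE, n = 24 mice each). limma gave Nusap1 adjusted p-values of 0.000264 in RERE, 0.962 in EpiRE, 0.085 in BRE and 1.99e-07 in WT. The spindle assembly factor Tpx2 had fitted swings of 1.48 log2 in RERE, 0.11 in EpiRE, 0.59 in BRE and 1.51 in WT, and Kif11, the motor that pushes spindle poles apart, of 0.96 log2 in RERE, 0.17 in EpiRE, 0.55 in BRE and 1.06 in WT. Kif2c, which depolymerizes microtubules at centromeres, had fitted swings of 1.86 log2 in RERE, 0.22 in EpiRE, 0.44 in BRE and 1.71 in WT. The chromosome-bound kinesins Kif4 and Kif22 had fitted swings of 1.22 and 1.79 log2 in WT. Kif15, another motor of spindle poles, had fitted swings of 0.71 log2 in RERE, 0.34 in EpiRE, 0.51 in BRE and 0.89 in WT. Dlgap5, which stabilizes kinetochore fibres, was the spindle gene not called in RERE (limma adjusted p = 0.178) and had fitted swings of 0.26 log2 in RERE, 0.13 in EpiRE, 0.09 in BRE and 0.39 in WT. Ckap2l (radmis), Hmmr and Kif20b, also spindle genes, had fitted swings of 0.54, 1.11 and 1.24 log2 in WT.

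All 6 cytokinesis genes were called in RERE and WT, and 0 in EpiRE and in BRE. Kif20a (ENSMUSG00000003779) encodes a kinesin of the central spindle. Kif20a in RERE mice measured 4.14, 8.19, 5.63 and 7.36 RPKM at ZT0 and 2.44, 1.43, 1.69 and 1.83 RPKM at ZT12. Kif20a in EpiRE mice measured 4.54, 4.84, 2.95 and 5.95 RPKM at ZT4 and 3.34, 4.101, 4.57 and 2.13 RPKM at ZT12. Kif20a values of the mice at these times stayed apart in RERE and overlapped in EpiRE. In BRE mice, Kif20a measured 7.53, 5.93, 3.74 and 5.03 RPKM at ZT4, against 2.59, 2.44, 2.17 and 4.36 RPKM at ZT0. In WT mice, Kif20a measured 6.003, 6.34, 7.06 and 5.66 RPKM at ZT0, against 2.13, 1.82, 2.03 and 3.19 RPKM at ZT12. Kif20a values of the mice at these times stayed apart in WT and overlapped in BRE. Kif20a had fitted swings of 1.51 ± 0.24 log2 in RERE, 0.09 ± 0.25 in EpiRE, 0.51 ± 0.25 in BRE and 1.53 ± 0.16 in WT (SE, n = 24 mice each). limma gave Kif20a adjusted p-values of 0.000748 in RERE, 0.995 in EpiRE, 0.303 in BRE and 1.70e-06 in WT. Anillin (Anln), which organizes the contractile ring, had fitted swings of 1.36 log2 in RERE, 0.16 in EpiRE, 0.45 in BRE and 1.41 in WT. Ect2, which switches on the small GTPase RhoA at the division plane, had fitted swings of 1.43 log2 in RERE, 0.29 in EpiRE, 0.71 in BRE and 1.49 in WT. Its partners Racgap1 and Kif23 (centralspindlin) had fitted swings of 1.35 and 1.23 log2 in RERE, 0.17 and 0.20 in EpiRE, 0.61 and 0.60 in BRE, and 1.46 and 1.34 in WT. Prc1, which bundles the microtubules of the central spindle, had fitted swings of 0.98 log2 in RERE, 0.08 in EpiRE, 0.26 in BRE and 0.95 in WT.

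**Figure D4:**
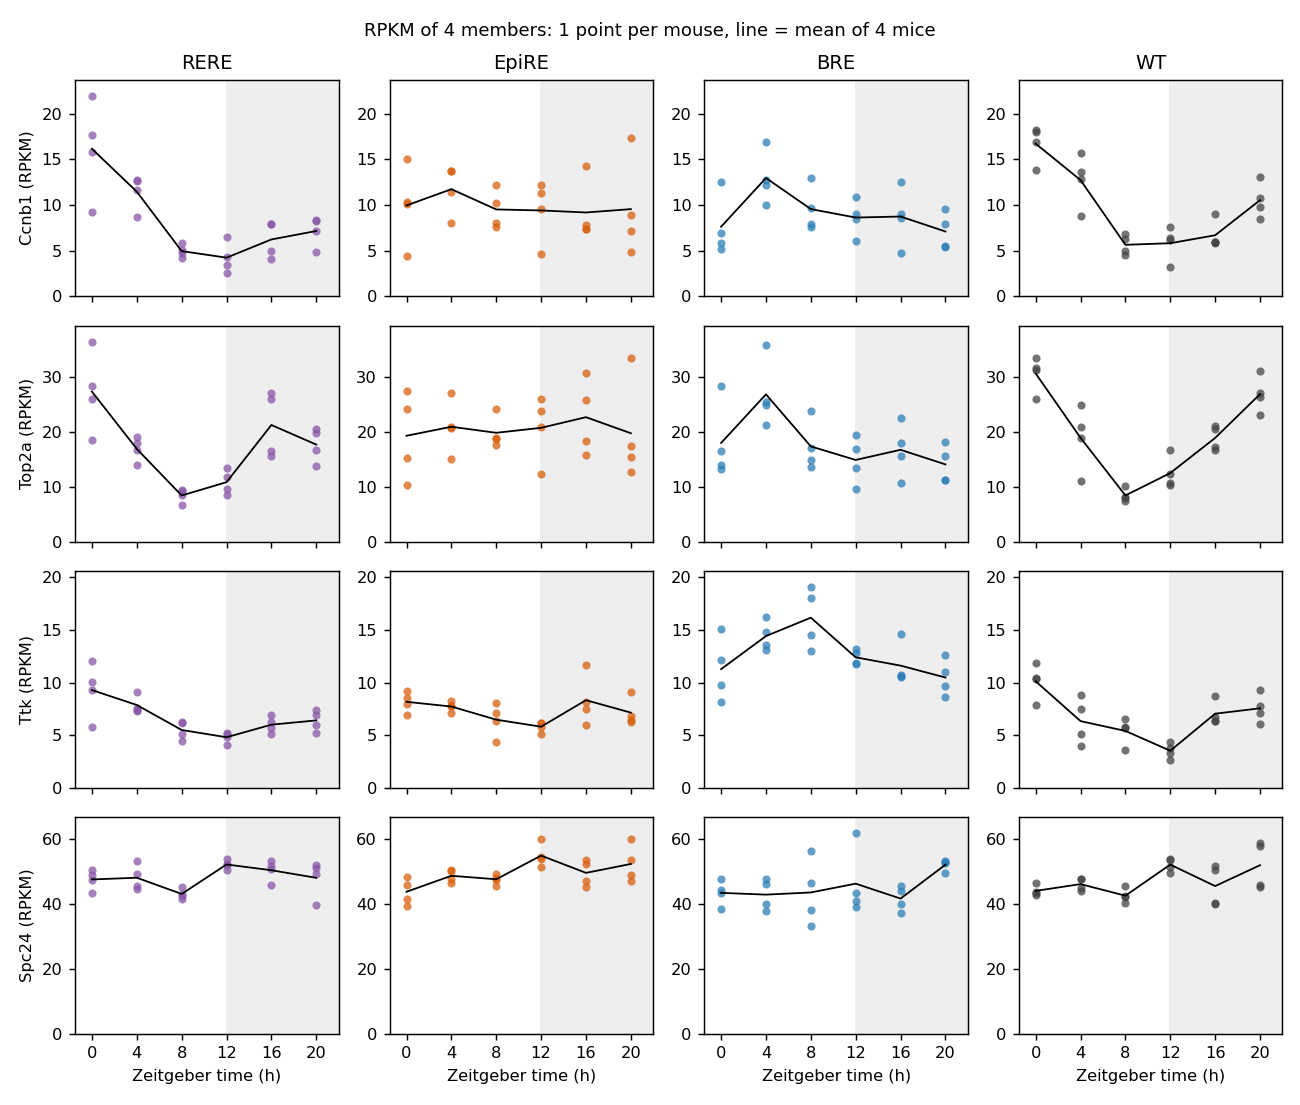
RPKM (vertical axes, from 0) of Ccnb1, Top2a, Ttk and Spc24 against zeitgeber time in hours (horizontal axes) in RERE, EpiRE, BRE and WT. Each point is 1 mouse, lines join the means of 4 mice, and the dark phase is shaded; Ccnb1 and Top2a are high at ZT0 in RERE and WT and at ZT4 in BRE, Ttk is higher at every time mean in BRE, and Spc24 stays between 33.2 and 61.9 RPKM in all 4 genotypes.

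Differences of rhythm between 2 genotypes were tested with limma as the interaction of genotype with the cosine and sine terms over 48 libraries, which covers size and peak time at once and leaves the mean of each genotype free. The comparisons share libraries, so their counts are not independent of each other. Between RERE and WT, 0 of 54 members differed, where 0.453% of all tested genes did (0.0659% with the larger rhythm in RERE and 0.387% in WT), and 0 had an unadjusted p below 0.05. The smallest limma adjusted p-values were those of Ttk (0.469), Ckap2l (0.578) and Birc5 (0.583). Their sizes were 0.82 ± 0.15 log2 in RERE and 1.19 ± 0.22 in WT for Ttk, 0.59 ± 0.15 in RERE and 0.54 ± 0.10 in WT for Ckap2l, and 0.52 ± 0.13 in RERE and 0.81 ± 0.10 in WT for Birc5. The test does not show that the rhythms are equal: standard errors of single members were up to 0.30 log2 in RERE.

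Between EpiRE and WT, 52 members differed, where 8.51% of all tested genes did, and in all 52 the rhythm was smaller in EpiRE (7.73% of all tested genes differed in that direction). Nuf2 had 0.27 ± 0.21 log2 in EpiRE and 1.55 ± 0.16 in WT (limma adjusted p = 0.000199). Foxm1 had 0.36 ± 0.22 in EpiRE and 1.5 ± 0.18 in WT (adjusted p = 0.000341), and Ccna2 had 0.30 ± 0.26 in EpiRE and 1.71 ± 0.18 in WT (adjusted p = 0.000349). The exceptions were Ttk (adjusted p = 0.113) and Spc24 (0.712). Without the mice numbered 1, 2 or 3 the count was 18, 25 or 17, with 52, 52 and 51 members still at an unadjusted p below 0.05, and without those numbered 4 it was 53. Calls over all tested genes were 274, 201, 145 and 1376 without the mice numbered 1, 2, 3 or 4, against 1034 with all mice.

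Between BRE and WT, 51 members differed, where 20.2% of all tested genes did, and in all 51 the rhythm was smaller in BRE (14.6% of all tested genes differed in that direction and 5.59% in the other). Kif4 had 0.54 ± 0.16 log2 in BRE and 1.22 ± 0.12 in WT (limma adjusted p = 3.07e-06). Nusap1 had 0.78 ± 0.26 in BRE and 2.05 ± 0.18 in WT (adjusted p = 4.23e-06), and Pbk had 1.07 ± 0.26 in BRE and 1.92 ± 0.22 in WT (adjusted p = 4.60e-06). Ckap2l, Dlgap5 and Spc24 did not pass, with adjusted p-values of 0.0678, 0.178 and 0.831. Leaving out mice by number kept the count at 48 to 51. Calls over all tested genes were 1873, 1012, 1227 and 1544 without the mice numbered 1, 2, 3 or 4, against 2457 with all mice.

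Between EpiRE and RERE, which differ in the brain Cre, 38 members differed, where 4.04% of all tested genes did, and all 38 rhythms were smaller in EpiRE (3.39% of all tested genes differed in that direction). Foxm1 had 0.36 log2 in EpiRE and 1.34 in RERE (limma adjusted p = 0.00723), Pbk 0.46 in EpiRE and 1.53 in RERE (0.00747), and Ccna2 0.30 in EpiRE and 1.53 in RERE (0.00748). All 6 cytokinesis genes passed, against 2 of the 7 genes of chromosome structure, a contrast between roles that was not tested. Without the mice numbered 1, 2, 3 or 4 the count was 1, 1, 0 and 27, while 49, 49, 48 and 51 members had an unadjusted p below 0.05. Over all tested genes these fits called 74, 178, 233 and 256, against 491 with all mice.

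Between BRE and RERE, which differ in the epidermal Cre, 46 members differed, where 4.79% of all tested genes did. The rhythm was smaller in BRE for 45 of them (3.30% of all tested genes differed in that direction) and larger in BRE for Smc2, with 0.73 ± 0.17 log2 in BRE and 0.55 ± 0.19 in RERE (1.49% differed in that direction). Pbk had 1.07 log2 in BRE and 1.53 in RERE (limma adjusted p = 0.000269), Nusap1 0.78 in BRE and 1.95 in RERE (0.000368), and Kif2c 0.44 in BRE and 1.86 in RERE (0.000372). The 8 that did not pass were Kif20b, Mki67, Ckap2l, Birc5, Mad2l1, Smc4, Dlgap5 and Spc24. Without the mice numbered 1, 2, 3 or 4 the count was 43, 24, 8 and 29, with 50 to 52 members at an unadjusted p below 0.05. The same fits called 714, 334, 188 and 283 of all tested genes, against 582 with all mice.

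Between BRE and EpiRE, 7 members differed, where 13.9% of all tested genes did, and all 7 rhythms were larger in BRE (10.5% of all tested genes differed in that direction). They were Ttk (limma adjusted p = 0.0107), Smc2 (0.0123), Pbk (0.0284), Ncapg (0.0307), Melk (0.0312), Ncaph (0.0392) and Kif15 (0.0433). Smc2, Ncapg and Ncaph are subunits of condensin I. The count was 2, 0, 1 and 4 without the mice numbered 1, 2, 3 or 4, and 2 (Ttk and Smc2) without the library of each genotype that correlated least with the rest. Over all tested genes these fits called 1313, 383, 931, 767 and 1117, against 1692 with all mice.

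Called members in RERE and WT peaked from the late dark phase to shortly after lights on, most of them before lights on. The median peak was at ZT22.4 in RERE (50 members) and ZT22.4 in WT (53 members), and at ZT4.11 in BRE (7 members). RERE peaks ran over 4.23 h, starting with Ndc80 (ZT20.3), Kif15 (ZT20.5) and Bub1 (ZT20.6) and ending with Cdc20 (ZT0.431), Ttk (ZT0.465) and Ccnb1 (ZT0.512). WT peaks ran over 4.26 h, starting with Ncaph (ZT20.3), Smc2 (ZT20.3) and Mad2l1 (ZT20.6) and ending with Aspm (ZT0.0955), Cenpf (ZT0.167) and Cenpa (ZT0.532). In BRE, Smc2 (ZT3.29), Mad2l1 (ZT3.45) and Ncapg (ZT3.55) came first, and Bub1 (ZT4.25), Pbk (ZT4.33) and Ttk (ZT7.44) last. Median standard errors of a peak were 0.67 h in RERE, 0.91 h in BRE and 0.43 h in WT, and most neighbours in these orders lie within their errors, Ttk in BRE being an exception.

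By role, the medians of WT peaks were ZT21.5 for the passenger complex (Aurkb included), ZT21.6 for chromosome structure, ZT22.3 for Foxm1 with Cdca3, ZT22.4 for checkpoint and anaphase and for the spindle, ZT22.5 for cyclins and kinases, ZT22.7 for cytokinesis and ZT22.9 for the kinetochore. RERE had the same 2 groups first, at ZT21.6 for the passenger complex and for chromosome structure, and Foxm1 with Cdca3 had a median of ZT22.1, against ZT22.8 to ZT23.1 for the other 5. Within some roles the genes spread farther than the role medians did: kinetochore peaks in WT ran from ZT21.3 (Ndc80) to ZT0.532 (Cenpa), and Ccnb1 peaked at ZT0.0296 against ZT21.2 for Pbk.

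Gene by gene, RERE peaks were later than WT peaks by a median of 0.17 h over the 50 members called in both, and 32 of the 50 were later in RERE. The order of the peaks in RERE and WT had a Spearman rho of 0.87 across these 50 genes, which share libraries within each genotype and are not independent. Fitted BRE peaks were later than WT peaks for all 53 members called in WT, by a median of 6.5 h (quartiles 5.91 and 7.17 h), and by 7.01 h over the 7 called in both. Since most BRE rhythms were not called, the peaks of those 46 members are descriptions of weak fits. Cdk1, for example, peaked at ZT5.35 in BRE and ZT22.04 in WT.

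**Figure D5:**
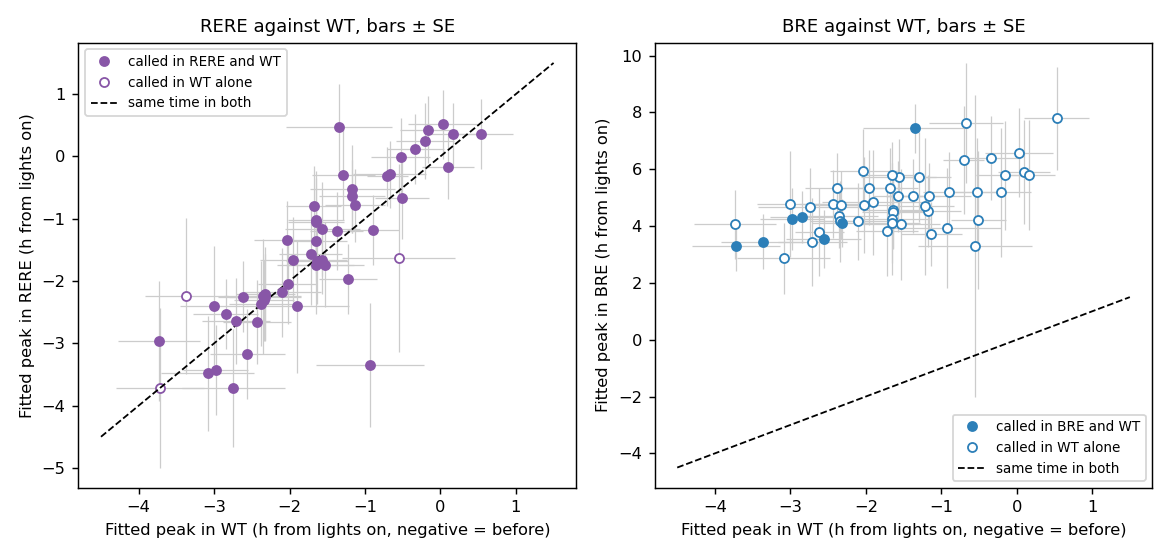
Fitted peak of each member called in WT, in hours from lights on, in RERE (left, vertical axis) and BRE (right, vertical axis) against WT (horizontal axes), with bars of ± SE. Filled circles were called in both genotypes, open circles in WT alone, and the dashed line marks equal times; RERE points scatter around the line, and all BRE points lie above it.

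Mice of the same time differed in these genes by more than the median tested gene, and for most members by more in RERE, EpiRE and BRE than in WT. The median SD between mice of the same time was 0.32 log2 over the members in RERE, 0.46 in EpiRE, 0.38 in BRE and 0.27 in WT, against 0.16 log2 in RERE, 0.15 in EpiRE, 0.16 in BRE and 0.15 in WT over all tested genes. The SD was above that in WT for 48 of 54 members in RERE, 51 in EpiRE and 51 in BRE, where 51.9% of all tested genes were above in RERE, 41.8% in EpiRE and 51.6% in BRE. Member genes moved together from mouse to mouse: after removing the mean of each time, the median correlation between pairs of members over 24 mice was 0.79 in RERE, 0.89 in EpiRE, 0.88 in BRE and 0.71 in WT. These correlations join values of the same library, and the mean of the 54 still had an SD of 0.28 log2 in RERE, 0.40 in EpiRE, 0.34 in BRE and 0.22 in WT. In EpiRE at ZT0 the members' mean lay at 1.86, 3.13, 2.76 and 2.33 log2 RPKM in the 4 mice, a spread of 1.27 log2 at 1 time. Standard errors of member swings in EpiRE ran from 0.07 log2 (Spc24) to 0.32 (Aspm).

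Levels over the day were close in the 4 genotypes. Against WT, the members' median mean level differed by -0.16 in RERE, 0.11 in EpiRE and -0.05 in BRE on the log2 scale, beside -0.01 in RERE, 0.00 in EpiRE and -0.05 in BRE for all tested genes. Of the 54 members, 3 in RERE, 53 in EpiRE and 11 in BRE stood above their WT level. The share of all tested genes above WT was not counted. An offset between tables normalized apart would shift all members alike, so these counts are no result about the members. No test was made across the tables. The exception was Ttk (ENSMUSG00000038379, mm10 chromosome 9, 83834689 to 83872389, plus strand), which encodes MPS1, the kinase that starts checkpoint signalling. Over 24 mice it ranged from 4.06 to 12.05 RPKM (median 6.22) in RERE, 4.35 to 11.7 (7.12) in EpiRE, 8.12 to 19.1 (12.7) in BRE and 2.67 to 11.8 (6.46) in WT. The mean log2 level of Ttk in BRE was 1.00 above that in WT, where the 99th percentile of all tested genes was 0.52. Its neighbours on chromosome 9, Elovl4 and Bckdhb, chosen after their values were seen, had medians of 132 and 36.0 RPKM in BRE and 115 and 37.5 RPKM in WT. Ttk also peaked last of the called BRE members, at ZT7.44, and its mouse-to-mouse changes in BRE had the lowest correlation with those of the other members (0.06).

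Other mitosis genes outside the 54 were set beside them. Of 47 tested genes of a second list (52 named), 29 were called in RERE, 2 in EpiRE, 8 in BRE and 40 in WT. Over all tested genes the shares called were 16.4% in RERE, 2.87% in EpiRE, 17.1% in BRE and 34.4% in WT. The 2 in EpiRE and the 8 in BRE are near these shares. Median rhythms of the second list were 0.69 log2 in RERE, 0.24 in EpiRE, 0.53 in BRE and 0.88 in WT. Ckap2, a spindle protein, had fitted swings of 1.47 ± 0.24 log2 in RERE, 0.04 ± 0.28 in EpiRE, 0.63 ± 0.27 in BRE and 1.53 ± 0.15 in WT. Cdc25c, the phosphatase that activates CDK1, had fitted swings of 1.93 ± 0.27 log2 in RERE, 0.12 ± 0.33 in EpiRE, 0.65 ± 0.27 in BRE and 1.9 ± 0.21 in WT. The 2 called in EpiRE were Cenph (limma adjusted p = 0.0229) and Zwilch (0.0274), both of the kinetochore. Between EpiRE and RERE 18 of the 47 differed, where 4.04% of all tested genes did. Between BRE and RERE 28 did, where 4.79% of all tested genes did. Of 21 subunits and cofactors of the anaphase-promoting complex and cohesin, 7 were called in RERE, 0 in EpiRE, 4 in BRE and 15 in WT. The 4 in BRE are near the share of all tested genes there (17.1%). Their median rhythm in WT, over all 21, was 0.26 log2 against 1.47 for the 54 members. Of 11 regulators (MuvB, B-MYB and pocket proteins), 3 were called in RERE, 4 in EpiRE, 4 in BRE and 7 in WT. Mybl2, which encodes B-MYB, peaked at ZT14.9 in RERE, ZT12.7 in EpiRE and ZT17.1 in WT, before the earliest called member in RERE and in WT, and was called in these 3 genotypes.

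DNA replication precedes mitosis, and its genes were set beside the 54. Of 31 S-phase genes, 25 were called in RERE, 21 in EpiRE, 27 in BRE and 29 in WT, beside the 50 in RERE, 0 in EpiRE, 7 in BRE and 53 in WT of the 54 mitosis genes. Over all tested genes the shares called were 16.4% in RERE, 2.87% in EpiRE, 17.1% in BRE and 34.4% in WT. The mean of the S-phase genes peaked at ZT12.8 in RERE, ZT12.8 in EpiRE, ZT1.09 in BRE and ZT14.9 in WT, with sizes of 0.73 log2 in RERE, 0.69 in EpiRE, 0.69 in BRE and 0.86 in WT. Counted forward around the 24 h from the S-phase peak, the mean of the mitosis genes peaked after 9.84 h in RERE, 3.71 h in BRE and 7.48 h in WT. Counted this way any peak comes out later, so the order itself is not a result. In EpiRE the swing of the mitosis mean, 0.12 log2, gives no usable peak. Between EpiRE and RERE 0 of the 31 S-phase genes differed by limma (1 at an unadjusted p below 0.05), against 38 of the 54 mitosis genes. Between BRE and EpiRE 30 of the 31 differed, against 7 of the 54. Over all tested genes, 4.04% differed between EpiRE and RERE and 13.9% between BRE and EpiRE. The difference between the 2 lists was not tested.

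Markers of other cells were measured over the same day. Of 6 T-cell markers tested, 1 was called in RERE, 0 in EpiRE, 1 in BRE and 1 in WT. The shares of all tested genes called were 16.4% in RERE, 2.87% in EpiRE, 17.1% in BRE and 34.4% in WT. The mean of 6 T-cell markers, of 7 named, had fitted swings of 0.66 log2 in RERE (peak at ZT23.2), 0.15 in EpiRE, 0.80 in BRE (ZT23.6) and 0.88 in WT (ZT22.1). Their summed level was 25.6 to 82.7 RPKM in RERE, 37.5 to 82.5 in EpiRE, 47.1 to 97.6 in BRE and 33.6 to 89.8 in WT. The mean of 7 basal keratinocyte markers had fitted swings of 0.08 log2 in RERE, 0.08 in EpiRE, 0.24 in BRE and 0.16 in WT, and that of 7 differentiation markers of 0.27 log2 in RERE, 0.24 in EpiRE, 0.57 in BRE and 0.51 in WT. Melanocyte markers had mean swings of 0.36 log2 in RERE, 0.35 in EpiRE, 0.30 in BRE and 1.47 in WT (ZT18.3), and blood markers of 0.38 log2 in RERE, 0.45 in EpiRE, 0.39 in BRE and 1.1 in WT (ZT23.4). Fibroblast markers had 0.73 log2 in RERE (ZT8.58), 0.06 in EpiRE, 0.15 in BRE and 0.71 in WT (ZT23.4). Of the 2 melanocyte, 2 blood and 1 fibroblast markers that were tested, 0 were called in any genotype. The means of these 3 lists also hold markers below 1 RPKM, which rest on few reads. In WT their SDs between mice of the same time were 1.01 log2 (melanocyte), 0.998 (blood) and 0.975 (fibroblast). Hair follicle and sebaceous gland markers had 0.35 log2 in RERE, 0.39 in EpiRE, 0.28 in BRE and 0.66 in WT (ZT19.6), and Langerhans and dendritic cell markers had 0.30 log2 in RERE (ZT23.1), 0.28 in EpiRE, 0.51 in BRE (ZT20.9) and 0.39 in WT (ZT23.8). The part of any of these cells in the rhythms of the mitosis genes was not tested.

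Reads of some members may include those of neighbours, since 4 share exon sequence with a gene on the same strand and 12 with a gene on the opposite strand, and the sources used here do not say whether counting used the strand. Among them are Cdc20 (with Elovl1), Ube2c (Tnnc2), Ccna2 (Exosc9), Kif20a (Cdc23), Nusap1 (Oip5) and Foxm1 (Tex52).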

How the data were processed

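Per the submitters' processing notes the tools were Trimmomatic 0.36, HISAT2 2.2.1 with the mm10 build, SAMtools 1.3.1, featureCounts 1.6.0 and edgeR. The deposited tables, 1 per genotype, hold a log2 value per gene and library whose unit is not named. The values behave as log2 RPKM with 2 reads added per gene by the authors, which was inferred from the worth of 1 read in low genes and draws low values together. The authors also deposited q-values of JTK_CYCLE and BIOCYCLE. A further 96 sample columns, in the JTK_CYCLE files, were not used.

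A gene entered the tests where its mean over the 96 libraries reached 1 RPKM. Deposited log2 values went into limma 3.58.1 under R 4.3.3 (a linear model per gene, then moderated variances with a trend on the mean). The terms were the cosine and sine of a 24 h harmonic and, between 2 genotypes, their interaction with genotype beside a free mean per genotype. Benjamini-Hochberg adjustment covered the 12144 tested genes, with calls below 0.05. Sizes carry standard errors from the fit. Depth per library (11.6 to 33.3 megareads) is an estimate. Means, overlaps and figures were made in Python 3.11.15 with numpy 2.4.6 and pandas 2.3.3. The fits were tried on simulated data with independent noise per gene and 24 h rhythms given to 200 randomly picked genes in EpiRE. At 0.5 log2, 67.5% of these rhythms were called, and 46% as a difference between EpiRE and WT. At 1 log2 these shares were 94% and 89%. The members vary more between mice than the median tested gene and vary together, so these shares do not carry over to them. Alternatives were another library scaling, no filter on low values, log2(RPKM + 1), no trend, a replicate block, the 6 times as levels, and fewer mice or libraries.

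Positions come from GENCODE M21 on mm10. The 54 members and all lists were chosen with earlier results of these data known. Any member may be named. Values per mouse are given for 12 members, at the times of their highest and lowest mean. The 3 largest and 3 smallest rhythms per genotype, the 3 smallest adjusted p-values per comparison, the first and last 3 peaks, members against the majority call, and up to 4 genes of each other list are also named.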

Additional observations from a re-analysis of the deposited data

Results flagged for a closer look

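Rhythms of mitosis genes differed between genotypes by the interaction test in limma for 52 members between EpiRE and WT, 51 between BRE and WT, 38 between EpiRE and RERE, 46 between BRE and RERE and 7 between BRE and EpiRE. Over all tested genes the shares were 8.51% between EpiRE and WT, 20.2% between BRE and WT, 4.04% between EpiRE and RERE, 4.79% between BRE and RERE and 13.9% between BRE and EpiRE. The 7 of 54 between BRE and EpiRE are near that background share.

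Single mice stood apart from the other 3 of their genotype and time in 11 of 120 groups examined, where chance alone sets about 1 in 20 apart. These groups share mice and are not independent. The BRE mouse numbered 4 at ZT0 was above the other 3 in the mean of the 54 members (2.99 log2 RPKM), in Cdc20 (11.2 RPKM) and in Cenpa (8.81 RPKM). The WT mouse numbered 4 at ZT0 was below the other 3 in Cdk1 (7.85 RPKM), Ube2c (30.2 RPKM) and Cenpa (8.80 RPKM). At ZT8 the WT mouse numbered 4 was above the other 3 in Cdc20 (5.97 RPKM) and Nusap1 (3.69 RPKM). A BRE mouse at ZT4 was above the rest in Bub1 (3.03 RPKM). In EpiRE, a mouse at ZT16 was above the rest in Ccnb1 (14.2 RPKM), and a mouse at ZT12 was below the rest in Bub1 (1.12 RPKM). No cause was tested.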

How the results depend on the processing

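Rescaling the libraries, adding 1 RPKM before the logarithm, fitting without a trend and blocking by replicate number left each of the 10 counts of called members within 1.5 times its value. Where a setting gives a peak time, no called member's peak moved by over 6 h. Without the filter on low values the count in BRE was 4 and that between BRE and EpiRE 2. With the 6 times as levels these were 3 and 0, and the count between EpiRE and RERE was 20. Without the least typical library of each genotype, a setting chosen after seeing the data, they were 4 in BRE and 2 between BRE and EpiRE. Leaving out the mice of 1 number at every time gave 40 to 49 called members in RERE, 0 to 0 in EpiRE, 0 to 6 in BRE and 53 to 53 in WT. Calls over all tested genes were then 1034 to 1275 in RERE, 6 to 378 in EpiRE, 211 to 1820 in BRE and 2065 to 3663 in WT. With all mice they were 1993 in RERE, 349 in EpiRE, 2072 in BRE and 4174 in WT. For the differences, leaving out mice gave 0 to 0 between RERE and WT, 17 to 53 between EpiRE and WT, 48 to 51 between BRE and WT, 0 to 27 between EpiRE and RERE, 8 to 43 between BRE and RERE and 0 to 4 between BRE and EpiRE. These settings hold fewer mice, and no further cause was tested. The replicate block gave 50, 0, 6 and 53 called members in RERE, EpiRE, BRE and WT, and between EpiRE and RERE 35. The labels do not say whether the numbers pair the mice. Same-numbered mice of 1 genotype correlated from -0.41 to 0.38 in their deviations. With 4 numbers at each time, 10, 4, 5 and 7 of 24 mice in RERE, EpiRE, BRE and WT correlated best with their own number. Mice of the same number and time had a median correlation of 0.11 between EpiRE and BRE, and of -0.03 to 0.05 between other genotypes. This check cannot exclude that the numbers mark something shared. Members near 2 RPKM, such as Bub1 and Sgol1, rest on fewer reads than Mki67 or Spc24.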

Other observations

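Some kinetochore genes outside the 54 peaked closer to the mean of the S-phase genes than to that of the 54 in RERE and WT. Kntc1 and Zwilch, subunits of the complex that brings dynein to kinetochores, and Cenph, of the inner kinetochore, were chosen after their values were seen. Kntc1 peaked at ZT16.3 in RERE, ZT2.08 in BRE and ZT16.8 in WT, with sizes of 0.99 ± 0.24, 1.05 ± 0.21 and 1.12 ± 0.12 log2 (SE, n = 24 mice each). Zwilch peaked at ZT16.7 in RERE, ZT12.3 in EpiRE, ZT2.99 in BRE and ZT18.0 in WT. Cenph peaked at ZT14.4 in RERE, ZT12.8 in EpiRE, ZT2.54 in BRE and ZT16.4 in WT, and varied by 0.96 ± 0.20 log2 in EpiRE. By limma, Kntc1 was not called in EpiRE (adjusted p = 0.0504), and Zwilch (0.0564) and Cenph (0.0603) were not called in BRE. No member of the 54 that was called in RERE or WT peaked between ZT1 and ZT20.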
